A study of Mus musculus with 6 samples.

Results

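The 5' UTR peaks of mouse liver were the stretches of open chromatin that the deposited annotation placed in the 5' untranslated region of a gene, the first transcribed part of the gene ahead of the protein-coding sequence. A peak belonged if its annotation began with that class, whatever its reads, and 2863 of the 22412 peaks in the table met it, at 2799 genes on 20 chromosomes. The assay was ATAC-seq: nuclei of lysed liver were given a transposase, which inserts sequencing adapters where chromatin is open. The Ad-EGFP group held 3 libraries labelled control, named in the usual form for an adenoviral vector that carries EGFP, a green fluorescent protein. The Ad-Dyrk1b group held 3 libraries labelled Dyrk1b overexpression, with a vector for Dyrk1b by the same naming. By these names both groups received a vector, and no liver without one was compared. The sources used here do not give strain, sex, age, vector dose or time after the vector, nor whether the libraries of a group came from separate animals. P-values therefore measure the spread between these libraries, which may be technical. The study title ties hepatic Dyrk1b, a protein kinase, to glucose homeostasis and to Wbp2, and no 5' UTR peak lay at either of these 2 genes.

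Active genes keep a short nucleosome-depleted stretch at the transcription start, where general transcription factors and RNA polymerase assemble. The opening reaches into the first transcribed bases, so a peak there can be annotated as 5' UTR although it covers the start itself. In liver, housekeeping genes and hepatocyte genes share this layout, and mammalian starts fall broadly into CpG-rich promoters, often without a TATA box, and CpG-poor promoters with one. Accessibility at a start is not a measure of transcript level, and no RNA is analysed here.

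A 5' UTR begins at a transcript start, so the side of the start on which these peaks lay was set by their label. All midpoints lay downstream of the annotated start used for that peak, at a median of 58 bases (quartiles 22 and 128). Of the 2863 peaks, 2599 (90.8%) covered it. That start can differ between peaks of the same gene: the 2 peaks of Mark2 lay 45009 bases apart, at 21 and 55 bases from theirs. Within 1 kb of the start lay 2803 (97.9%), and 30 lay over 3 kb away. The peaks annotated as promoter within 1 kb were the mirror class: all 3088 had their midpoint at or upstream of the start, at a median of -120.5 bases, and 2467 (79.9%) covered it. The 2 classes thus lay on either side of annotated starts, as their labels imply. Peaks at 5' UTRs were wide, with a median of 617 bases against 456 over all peaks and a range of 202 to 2085. The distance column of the deposited table was measured to another gene's start for 118 of them, so distances here are to the start annotated for the peak.

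**Figure D1:**
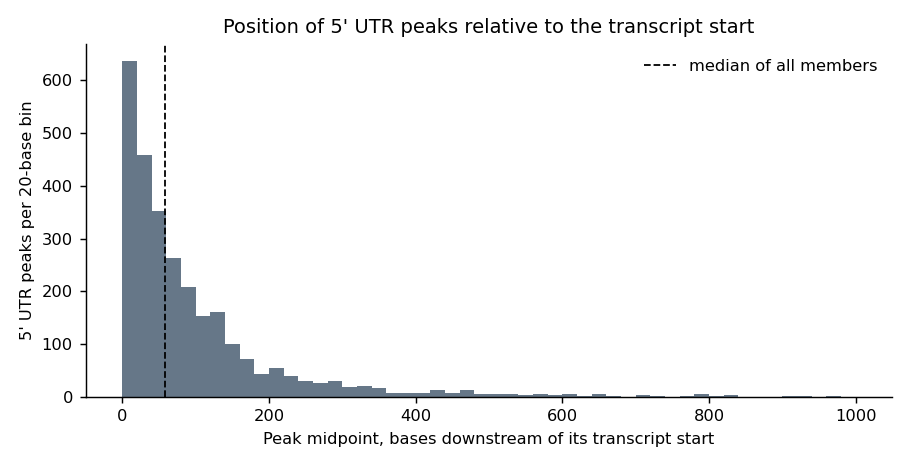
Histogram of the distance in bases from the annotated transcript start of its own gene to the midpoint of each 5' UTR peak (x axis, 20-base bins, shown to 1000 bases) against the number of peaks (y axis). The dashed line is the median of 58 bases, and the counts are highest in the bins next to the start.

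Sequences before the start are shown for 4 genes, because they span the range of CpG content at the peaks with the clearest differences between groups. They are the 30 bases just before a RefSeq transcript start on the gene's strand, from the 300-base windows of RefSeq GRCm38.p6, with each CG dinucleotide in capitals. The windows of Rccd1 (chr7:80324405-80324704, minus strand) and Med16 (chr10:79908889-79909188, minus strand) held 3 CpG each in the 250 bases before the start. That of Klf11 (chr12:24651121-24651420, plus strand) held 32 and that of Prkcq (chr2:11172132-11172431, plus strand) 30.
Rccd1: caatcagtgaaggcactagtactacagctt
Med16: aaattaacCGgggcaggggagtagcCGagc
Klf11: cCGtggCGcccCGcccctccCGCGcctccc
Prkcq: ccctctggcCGgtgcCGccacCGgagtacc
Rccd1 and Med16 were the peaks that fell, Klf11 was among the lower peaks that were not called and Prkcq among the higher ones. CpG-poor and CpG-rich starts were thus both present among the lower peaks.

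Motif matches before the start are shown for 6 genes and 5 promoter elements, with the ETS motif in both orientations. Each window has 30 bases on the gene's strand, and the capitals mark the match, which is the reverse complement of the motif where that is stated. They are a CCAAT box (CCAAT, bound by NFY) of Rccd1 at chr7:80324468-80324497, a GC box (CCCGCCC, bound by SP and KLF factors) of Klf11 at chr12:24651310-24651339, and an ETS motif (CCGGAAG) of Ogg1 at chr6:113326863-113326892. The others are a reverse ETS motif of Usp30 at chr5:114100256-114100285, an E-box (CACGTG, the element of clock factors) of Ciart at chr3:95882269-95882298 and a TATA box (TATAAA) of S100a8 at chr3:90669029-90669058, all in GRCm38.p6.
Rccd1: acagagcctgggCCAATcagtgaaggcact
Klf11: tgcccgcgcgcCCCGCCCagggccgctccc
Ogg1: taaactgggacCCGGAAGaaccatactggc
Usp30: ggtgtgactaaCTTCCGGtccgtcctcctg
Ciart: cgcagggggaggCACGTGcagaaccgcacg
S100a8: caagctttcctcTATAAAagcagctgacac
The TATA box of S100a8, a calcium-binding protein of neutrophils, began 30 bases before its start. A match is a description of the letters, and whether these bases lie inside the deposited peaks was not examined, since the peak coordinates do not follow GRCm38.

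Genes with a 5' UTR peak had CpG-rich starts. A RefSeq start was found for 2325 of the 2863 peaks (81.2%), and their 3111 windows held a median of 15 CpG in the 250 bases before the start, against 10 in the 21262 windows of all protein-coding genes. The observed CpG count exceeded 0.6 of that expected from base content in 63.8% of the windows, against 44.7% over all. Searched on both strands of the same 250 bases, TATAAA stood in 6.27% of the windows against 11.6% over all. CCCGCCC stood in 40.8% against 31.1%, CCGGAAG in 13.2% against 8.98%, and GCGCATGCG, the motif of NRF1, in 3.15% against 1.93%. CACGTG was at 7.75% against 6.63%, and CCAAT at 31.1% against 35.4%. The windows thus held more CpG, GC boxes and ETS and NRF1 motifs than those of all protein-coding genes, and fewer TATA and CCAAT boxes. These traits are not shown to be particular to 5' UTR peaks: of the promoter peaks within 1 kb, 73.8% matched a RefSeq start, too few for a comparison. A head-to-head partner, a gene on the other strand starting within 1 kb, was found for 494 of 2325 peaks (21.2%), against 13.1% of protein-coding genes.

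The libraries held 762633 to 1267934 reads in peaks, or 1.67% to 2.62% of the library totals that the deposited RPKM values rest on. The 5' UTR peaks were counted at a median of 39 to 44 reads in the Ad-EGFP libraries and 37 to 64 in the Ad-Dyrk1b libraries. Across 5' UTR peaks the libraries correlated at 0.781 to 0.800 within Ad-EGFP, 0.744 to 0.823 within Ad-Dyrk1b and 0.706 to 0.786 between the groups, values that share peak width. As a check of the tissue, 5 of 10 hepatocyte marker genes had a peak of any class (Alb, Apoa1, Apob, Fgb and Hnf4a), and Cps1, Cyp2e1, Serpina1a, Tat and Ttr had none in the table. Their 7 peaks summed to 279 to 435 CPM (TMM-normalised counts, with each library scaled by its reads in peaks) in the Ad-EGFP libraries and 313 to 336 CPM in the Ad-Dyrk1b libraries, and 6 of the 7 had a log2 change below 0, with a median of -0.25. Of 33 markers of other liver and blood cells, 10 genes had a peak, 13 peaks in all. Those 13 summed to 448 to 479 CPM in the Ad-EGFP libraries and 498 to 568 CPM in the Ad-Dyrk1b libraries. Their log2 change was above 0 in 11 of 13, with a median of 0.52. Over all peaks tested 50.5% were above 0, and 63.1% of the peaks outside the class at up to 36.0 CPM. Between groups, the sums of endothelial, B cell and erythroid markers did not overlap, higher with Dyrk1b. Those of macrophage, stellate and neutrophil markers overlapped. None of the 13 or of the hepatocyte peaks passed the test, and markers of cholangiocytes and of T and NK cells had no peak. Their part in the results that follow was not tested, and in bulk tissue fewer cells of a type and less accessibility per cell cannot be told apart.

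Across all peaks tested, 2 of the 5' UTR peaks passed the test, both lower with Dyrk1b. They were at Rccd1, which encodes a protein with RCC1-type repeats, and at Med16, a subunit of the tail of Mediator, the complex that links transcription factors to RNA polymerase. None of the 2862 peaks tested was called higher. Over all 22051 peaks tested, 0.0227% were called lower and 0.00907% higher (adjusted p under 0.05, edgeR quasi-likelihood test with Benjamini-Hochberg adjustment). At an unadjusted p under 0.05, 134 of the 5' UTR peaks (4.68%) were higher and 239 (8.35%) lower, against 6.44% and 7.72% of all peaks. The groups did not overlap in 173 peaks higher with Dyrk1b (6.04%) and 332 lower (11.6%), against 9.53% and 9.97% of all peaks. The share higher was thus below that of all peaks, and the share lower was near it or a little above.

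The peak at Rccd1 (chr7:79973827-79974359 as deposited) covered the start, with its midpoint 79 bases downstream. It stood at 55.1, 59.5 and 47.1 CPM in the Ad-EGFP libraries and at 15.9, 15.4 and 9.98 CPM in the Ad-Dyrk1b libraries. All 3 Ad-Dyrk1b libraries were far below the lowest control, from 35 to 49 reads per control library to 12 to 14. The mean fell from 53.9 ± 6.32 CPM to 13.8 ± 3.30 CPM (SD, n = 3 each), a log2 change of -1.998 ± 0.35 (SE; edgeR adjusted p = 0.0048). The call was lost without Ad-EGFP library 2 (adjusted p = 0.0514), without Ad-Dyrk1b library 3 (adjusted p = 0.0728) and on scaling to library totals (adjusted p = 0.123, edgeR in each case), with log2 changes of -1.92, -1.77 and -1.85. In the authors' deposited table, Rccd1 had the lowest FDR of all 5' UTR peaks, at 0.0756, with a log2 change of -1.85.

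The peak at Med16 (chr10:79744074-79745291) was 1217 bases wide, with its midpoint 62 bases downstream of the start. It stood at 150, 163 and 144 CPM in the Ad-EGFP libraries and at 91.6, 66.2 and 69.1 CPM in the Ad-Dyrk1b libraries, with no overlap. The mean fell from 152 ± 9.65 CPM to 75.6 ± 13.9 CPM, a log2 change of -1.02 ± 0.21 (SE; edgeR adjusted p = 0.0288). This call was less stable than the direction: the log2 change was -0.84 to -1.06 under the alternatives where it was lost, which were another scaling, limma-trend and leaving out any library but Ad-Dyrk1b 1. The adjusted p of edgeR was then 0.0537 scaled by library size only, 0.0773 after loess normalization, 0.452 scaled to library totals and 0.0711 to 0.195 without 1 library, and limma-trend gave 0.0669. The second Med16 peak in the table, in a later intron 11571 bases downstream, stood at 51.3 ± 2.28 CPM and 63.9 ± 5.80 CPM, with a log2 change of 0.31 ± 0.25. The authors' deposited table gave the 5' UTR peak a log2 change of -0.88 and an FDR of 0.299.

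The next lower peaks by p did not pass. Ogg1, the glycosylase that removes oxidised guanine from DNA, stood at 99.7, 92.3 and 98.1 CPM in Ad-EGFP and 57.1, 45.2 and 47.6 CPM in Ad-Dyrk1b (log2 change -0.96 ± 0.23, edgeR adjusted p = 0.0966). Tardbp, an RNA-binding protein of splicing control, stood at 108, 101 and 84.7 CPM against 50.4, 46.3 and 59.1 CPM (-0.90 ± 0.23, edgeR adjusted p = 0.105). Klf11, a Krüppel-like transcription factor, stood at 118, 101 and 106 CPM against 63.7, 62.9 and 56.1 CPM (-0.84 ± 0.22, edgeR adjusted p = 0.110). In each of these 3 the Ad-EGFP libraries were all higher than the Ad-Dyrk1b libraries, which the rule for naming uncalled peaks by p required. DESeq2, as an alternative, called Ogg1, Tardbp, Klf11 and Pcnx3 lower (adjusted p = 0.0493 for each) along with Med16, and gave no adjusted p for Rccd1.

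Among the remaining lower peaks were several with known roles in liver metabolism and RNA handling. Srebf1, the transcription factor of lipogenic genes, stood at 98.5, 55.9 and 68.6 CPM in Ad-EGFP and 37.2, 41.9 and 35.3 CPM in Ad-Dyrk1b (log2 change -0.97 ± 0.26, edgeR adjusted p = 0.112). The Ad-EGFP libraries spread widely here, with the lowest above every Ad-Dyrk1b library, as the naming rule required. Sdhb, the iron-sulfur subunit of succinate dehydrogenase, had means of 82.0 ± 15.7 and 44.95 ± 13.0 CPM (log2 change -0.90 ± 0.25). Bet1, a SNARE of transport from the endoplasmic reticulum to the Golgi, had means of 58.9 ± 8.56 and 27.7 ± 3.84 CPM (-1.09 ± 0.29). Thoc1, of the THO complex in mRNA export, had means of 72.4 ± 17.6 and 37.1 ± 3.30 CPM (-0.97 ± 0.26). Pcnx3 had means of 123 ± 16.1 and 68.6 ± 15.1 CPM (-0.84 ± 0.22).

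None of the higher peaks passed, and those with the lowest p varied in level. Sox13, Usp30 and Prkcq were weak peaks, while Nacc1, Itga3 and Pias3, given below, were stronger. Sox13, a SOX transcription factor, stood at 14.1, 20.7 and 6.72 CPM in Ad-EGFP and 26.5, 49.6 and 45.3 CPM in Ad-Dyrk1b (log2 change 1.54 ± 0.39, edgeR adjusted p = 0.105). Usp30, a deubiquitinase of the mitochondrial outer membrane, stood at 27.0, 10.9 and 13.4 CPM against 34.5, 54.0 and 47.6 CPM (1.40 ± 0.35, edgeR adjusted p = 0.105). Prkcq, a protein kinase C isoform, stood at 11.7, 17.01 and 6.72 CPM against 43.8, 40.8 and 26.1 CPM (1.597 ± 0.41, edgeR adjusted p = 0.107). Each of these rested on 5 to 23 reads per Ad-EGFP library, and no groups overlapped, as the naming rule required. The higher peaks also held Pck2, the mitochondrial enzyme that makes phosphoenolpyruvate, at 39.9, 29.2 and 38.99 CPM in Ad-EGFP and 63.7, 73.9 and 65.3 CPM in Ad-Dyrk1b (0.91 ± 0.26, edgeR adjusted p = 0.140). It was one of the better covered of them, at 24 to 34 reads per Ad-EGFP library.

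Further higher peaks were named by the same rule, which took only peaks whose groups did not overlap. Nacc1, a transcriptional regulator, stood at 27.6 ± 11.8 and 61.7 ± 5.87 CPM (log2 change 1.17 ± 0.30). Itga3, an integrin subunit, stood at 46.7 ± 9.04 and 87.1 ± 9.001 CPM (0.90 ± 0.24). Pias3, a SUMO ligase that binds STAT factors, stood at 57.7 ± 5.82 and 99.1 ± 9.69 CPM (0.78 ± 0.23). Another Pias3 peak, annotated as promoter and covering a different annotated start, stood at 46.4 ± 3.63 and 47.4 ± 12.9 CPM (0.06 ± 0.27), with overlap. The 5' UTR peaks of Itga3 and Pias3 were both stronger than that of Nacc1. Spata6l (1.46 ± 0.41) and Plekhh1 (1.38 ± 0.41) had 8 to 15 reads per Ad-EGFP library. The other 5' UTR peak of Plekhh1 was at 0.37 ± 0.52, with overlap.

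**Figure D2:**
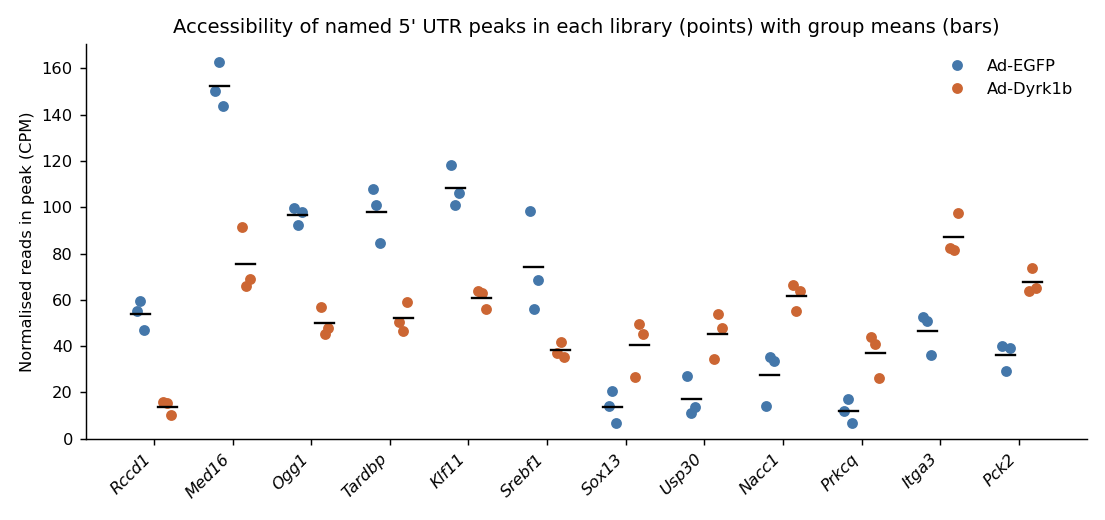
Normalised reads (CPM, y axis from 0) of 12 named 5' UTR peaks in each of 3 Ad-EGFP and 3 Ad-Dyrk1b libraries (points), with group means as bars. Rccd1 and Med16 passed the test across all peaks, and the other 10 did not. In all 12 the libraries of the groups do not overlap, which for the other 10 was a condition of being named.

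The direction of the class as a whole depended on how the libraries were scaled. With TMM normalization the median log2 change of the 2862 peaks was -0.05, against 0.00 over all peaks and -0.11 at promoter peaks within 1 kb, and 64.1% of the peaks with an unadjusted p under 0.05 were lower. Scaled by reads in peaks only, the split was 155 higher and 187 lower (54.7% lower). After loess normalization it was 173 higher and 153 lower (46.9% lower), with a median of 0.03. With library totals as the scale, it was 132 higher and 16 lower (10.8% lower), and the median was 0.12 where that of all peaks was 0.17. Relative to all peaks, the median of the 5' UTR peaks lay 0.05 lower under TMM, under library size and under library totals. These scalings apply 1 factor to each library, so the difference could hardly vary between them. After loess normalization, which can change it, the median lay 0.01 higher. By the authors' deposited table, at a p under 0.05, 145 were higher and 25 lower, none had an FDR under 0.05, and the median log2 change was 0.12 against 0.17 over all peaks.

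Shares of reads need no such scaling. The 5' UTR peaks took 16.6%, 15.95% and 16.2% of the reads in peaks in the Ad-EGFP libraries and 15.2%, 16.4% and 15.9% in the Ad-Dyrk1b libraries. The groups overlapped, with a mean of 16.3% ± 0.34 and 15.8% ± 0.61 (SD, n = 3 each). The lowest value, in Ad-Dyrk1b library 1, came from the library in which 1 exonic peak outside this class took the largest share of reads, 5.30%. Without that peak, the shares were 16.9%, 16.7% and 16.9% against 16.1%, 16.99% and 16.4%, which still overlapped.

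Within the class the difference between groups varied with the level of the peak. The peaks were divided into quartiles by their mean over all 6 libraries, from 11.1 to 36.0, 36.0 to 51.2, 51.3 to 70.4 and 70.4 to 797 CPM. From the lowest to the highest quartile, the median log2 change was 0.12, -0.04, -0.08 and -0.13. In the lowest quartile 63 peaks (8.81%) were higher and 32 (4.48%) lower at an unadjusted p under 0.05. Of all other peaks at that level, 9.52% were higher and 4.97% lower. In the highest quartile 7 (0.978%) were higher and 81 (11.3%) lower, against 1.05% and 16.1% of all other peaks at that level. Weak 5' UTR peaks thus held relatively more reads with Dyrk1b and strong ones relatively fewer, as a shift of small size over many peaks. Whether openness itself differed with level was not tested. The counts moved with the scaling: with library totals as the scale they were 76 higher and 6 lower in the lowest quartile and 4 and 3 in the highest, whose median was then 0.04. After loess normalization they were 34 and 51 in the lowest and 41 and 20 in the highest.

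Read shares, which do not depend on scaling, describe the same counts in another way. The lowest quartile held 11.2%, 11.8% and 11.5% of the 5' UTR peak reads in Ad-EGFP and 13.2%, 13.1% and 12.6% in Ad-Dyrk1b. The highest quartile held 43.3%, 42.0% and 42.6% in Ad-EGFP and 40.6%, 41.1% and 40.8% in Ad-Dyrk1b. In both quartiles the groups did not overlap, while in the quartiles between them they did. The difference in median log2 change between the lowest and highest quartile was 0.25, and lay between 0.21 and 0.30 when any 1 library was left out. Scaled to library totals it was 0.26, but 1 factor per library shifts all peaks about alike, so it could hardly change. The difference was -0.02 after loess normalization, which levels out any trend with read level by construction.

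**Figure D3:**
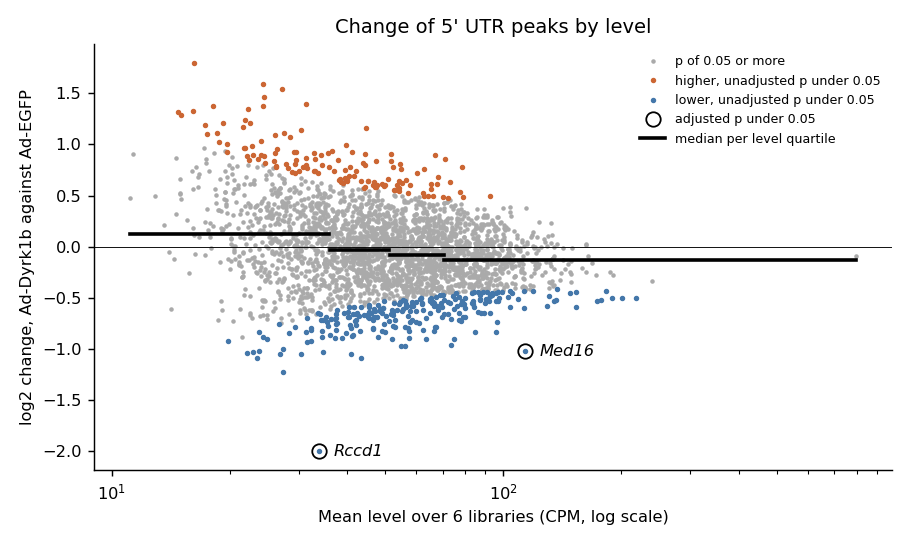
Mean level over the 6 libraries (CPM, log axis) against the log2 change of Ad-Dyrk1b over Ad-EGFP for each of 2862 5' UTR peaks, with black bars for the median of each level quartile. The medians step down from 0.12 to -0.13, and the 2 circled peaks passed the test.

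**Figure D4:**
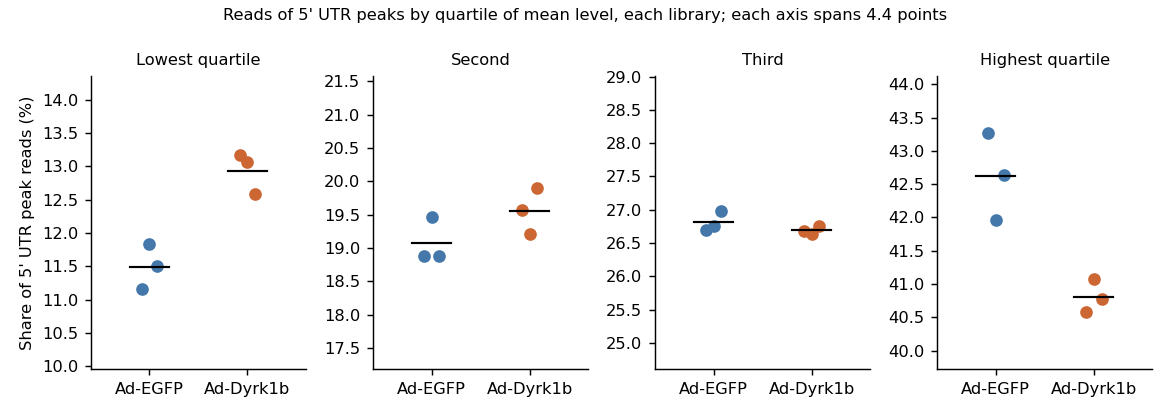
Share of all 5' UTR peak reads (percent, y axes that do not start at 0 but span the same number of percentage points) that fell in each level quartile, for 3 Ad-EGFP and 3 Ad-Dyrk1b libraries with group means as bars. The groups do not overlap in the lowest quartile, where Ad-Dyrk1b is higher, or in the highest quartile, where it is lower.

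This dependence on level was shared with other peaks. At the same limits of level, the median log2 change of all other peaks was 0.19, -0.04, -0.14 and -0.17, that of promoter peaks within 1 kb 0.03, -0.09, -0.12 and -0.18, and that of first-intron peaks 0.17, -0.07, -0.13 and -0.16. The 5' UTR peaks were the stronger ones, with a median of 51.2 CPM against 35.5 over all peaks, 48.5 at promoter peaks within 1 kb, 33.5 in first introns and 28.97 in later introns. Width followed level: the narrowest quartile of 5' UTR peaks (202 to 445 bases) had a median of 28.9 CPM and a median log2 change of 0.05, and the widest (813 to 2085 bases) 84.4 CPM and -0.10. Per kb of peak, the 5' UTR peaks had a median of 83.8 CPM against 77.6 over all peaks. Promoter peaks within 1 kb had 85.6 CPM per kb, so by this measure the 5' UTR peaks were not the stronger of these 2 classes. Peaks that did not cover their start, 264 in all, were weaker, at a median of 36.0 CPM against 52.8, and had a median log2 change of 0.00 against -0.06.

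CpG content and motifs went with small differences. The quartile of matched 5' UTR peaks with the fewest CpG before the start (up to 10) had a median of 45.3 CPM and a median log2 change of -0.02, and the richest quartile (over 21.5) had 55.0 CPM and -0.07. The quartiles between them had -0.07 and -0.06. From the fewest to the most CpG, 7.62%, 10.9%, 7.93% and 5.88% were lower at an unadjusted p under 0.05. Higher were 6.22%, 3.25%, 3.10% and 5.71%, so the richest quartile had the smallest share lower. Peaks with a head-to-head partner had a median log2 change of -0.14 and 57.4 CPM, against -0.03 and 49.9 CPM without one, and 51 of 494 (10.3%) were lower at an unadjusted p under 0.05 against 135 of 1831 (7.37%). The 385 peaks of genes with an ETS motif had a median log2 change of -0.10 against -0.04 without it, at 54.3 against 50.7 CPM. The 187 with a TATA box had -0.03 against -0.06, at 43.5 against 52.3 CPM. A lower median did not always go with stronger peaks: the 49 peaks with TGACGTCA, the CREB motif, had a median log2 change of -0.20 against -0.05 without it, at 48.9 against 51.8 CPM. For the GC box the medians were -0.05 against -0.06, at 52.5 against 50.6 CPM. The part of these features apart from level was not tested.

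The gene lists held 206 of the 5' UTR peaks. Of these, 1 was called (Med16), 3 were higher and 25 lower (12.1%) at an unadjusted p under 0.05, and 141 had a log2 change below 0, with a median of -0.16 against -0.05 over the class. Over the whole class 8.35% were lower and 55.1% below 0, and over all peaks 7.72% were lower. The directions carry the TMM scaling, and the lists were set under other scalings after the data had been seen: with library totals as the scale 103 of the 206 were below 0, with 1 higher and 5 lower, and after loess normalization 121, with 7 and 19. The median level was 56.1 CPM, and no list was tested as a set. Some lists were taken by a pattern of gene names and so also hold genes named after a factor. Examples are Eef2k and Eef1akmt1 among translation factors and Psme3ip1 in the proteasome list.

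The spliceosome list had 24 peaks, 19 (79.2%) with a log2 change below 0, 5 (20.8%) lower and 0 higher at an unadjusted p under 0.05, and a median of -0.32. With library totals as the scale, 16 were below 0, 1 was lower and the median was -0.14, where that of all peaks was 0.17. None of them passed the test. Hnrnph1, a splicing regulator, stood at 84.4, 62.0 and 76.6 CPM in Ad-EGFP and 49.1, 44.1 and 29.2 CPM in Ad-Dyrk1b (log2 change -0.90 ± 0.26, edgeR adjusted p = 0.140). Ddx5, an RNA helicase, stood at 82.1, 109 and 101 CPM against 57.1, 50.7 and 66.8 CPM (-0.73 ± 0.23, edgeR adjusted p = 0.169). In both, the groups did not overlap. The other 5' UTR peak of Hnrnph1 stood at 48.3 ± 3.44 and 38.2 ± 6.67 CPM (-0.32 ± 0.28), also without overlap. Mediator had 9 peaks, 5 of them below 0. Beside Med16, Med1, the subunit that binds nuclear receptors, stood at 76.4 ± 7.65 and 53.7 ± 7.74 CPM (-0.52 ± 0.24, edgeR adjusted p = 0.320).

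The list of translation factors and genes named after them had 20 peaks, 12 below 0 and 3 lower at an unadjusted p under 0.05. Their median was -0.13 and turned to 0.03 with library totals as the scale. Eif2b2, of the exchange factor for initiation factor eIF2, stood at 76.3 ± 29.4 and 45.4 ± 2.56 CPM (-0.75 ± 0.26), and Eif4g1, the scaffold of cap binding, at 72.6 ± 5.84 and 47.2 ± 9.27 CPM (-0.63 ± 0.25). Cytosolic ribosomal proteins had 12 peaks at 11 genes, 9 (75%) below 0, with a median of -0.17, and 6 below 0 with library totals as the scale. The lowest p among them was at Rps9, a weak peak at 31.8 ± 14.4 and 15.02 ± 2.05 CPM (-1.09 ± 0.41, edgeR adjusted p = 0.240). The mitochondrial ribosome had 20 peaks, 10 on each side of 0, with a median of -0.01 that turned to 0.03 by library size only, 0.01 after loess normalization and 0.16 with library totals. Mrps11 stood at 36.7 ± 6.08 and 57.1 ± 19.0 CPM (0.60 ± 0.29) and Mrpl38 at 96.4 ± 11.2 and 71.1 ± 14.5 CPM (-0.44 ± 0.22).

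The mitochondrial respiratory chain had 26 peaks, 18 (69.2%) below 0 and 3 (11.5%) lower at an unadjusted p under 0.05, with a median of -0.25, and of -0.11 with library totals as the scale. Beside Sdhb, Atp5d, a subunit of ATP synthase, stood at 51.6 ± 7.48 and 30.3 ± 8.11 CPM (-0.79 ± 0.30, edgeR adjusted p = 0.239). Cytosolic chaperones had 15 of 16 peaks below 0 (median -0.21), and 10 of 16 with library totals as the scale, with Hspa8, the constitutive Hsp70, at 99.3 ± 22.7 and 68.2 ± 14.7 CPM (-0.57 ± 0.23). The proteasome list had 6 of 7 below 0 (median -0.14), and 3 of 7 with library totals as the scale (median 0.01), with Psmg4, an assembly chaperone of the proteasome, at 81.5 ± 4.36 and 53.8 ± 11.0 CPM (-0.58 ± 0.24). Protein processing in the endoplasmic reticulum had 6 of 9 below 0 under each of these scalings (median -0.33 under TMM), none with an unadjusted p under 0.05. No peak of these 4 lists passed the test.

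In glucose metabolism, which the study title names, no 5' UTR peak passed the test. Gluconeogenesis had 6 peaks, 3 on each side of 0 (2 below with library totals as the scale or after loess normalization), of which Pck2 was the only one with an unadjusted p under 0.05. Creb1, the transcription factor that answers to glucagon, stood at 91.5 ± 14.5 and 117 ± 15.9 CPM (0.34 ± 0.21), with overlap. Insulin and mTOR signalling had 9 of 10 peaks below 0, with a median of -0.26, and 7 of 10 with library totals as the scale. Insr, the insulin receptor, stood at 84.4, 59.5 and 41.7 CPM in Ad-EGFP and 30.5, 39.7 and 44.5 CPM in Ad-Dyrk1b (-0.68 ± 0.27, edgeR adjusted p = 0.268), so the groups overlapped. Trib1, a pseudokinase that controls hepatic lipid genes, stood at 96.1, 87.5 and 73.9 CPM against 49.1, 56.2 and 54.5 CPM (-0.69 ± 0.23, edgeR adjusted p = 0.196), without overlap.

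Glycolysis and hexose uptake had 5 peaks, 4 below 0. Khk, which phosphorylates fructose, stood at 96.1, 59.5 and 65.9 CPM against 35.8, 40.8 and 46.8 CPM (-0.83 ± 0.26, edgeR adjusted p = 0.167), without overlap. Gapdh stood at 54.4 ± 24.5 and 40.4 ± 1.77 CPM (-0.43 ± 0.29). Glycogen metabolism had 7 peaks, 5 below 0 under TMM and 3 with library totals as the scale: Pgm1, which interconverts glucose phosphates, at 98.0 ± 6.99 and 61.3 ± 9.30 CPM (-0.69 ± 0.23), and Phkb, a subunit of phosphorylase kinase, at 46.7 ± 5.94 and 67.5 ± 16.6 CPM (0.53 ± 0.26).

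Lipid genes gave few 5' UTR peaks. Lipogenesis had 6, 4 below 0 under TMM and 2 with library totals as the scale or after loess normalization, and beside Srebf1 the lowest p was at Fads2, a fatty acid desaturase, at 71.4 ± 16.2 and 42.9 ± 18.2 CPM (-0.68 ± 0.27). Cholesterol synthesis and uptake had 4, of which 3 were below 0 under TMM and 2 under the other scalings. Fatty acid oxidation had 4 peaks, of which Hadha, of the trifunctional protein, stood at 69.4 ± 8.78 and 50.9 ± 6.83 CPM (-0.45 ± 0.25) and Cpt2 at 74.6 ± 8.07 and 66.4 ± 8.57 CPM (-0.15 ± 0.23).

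**Figure D5:**
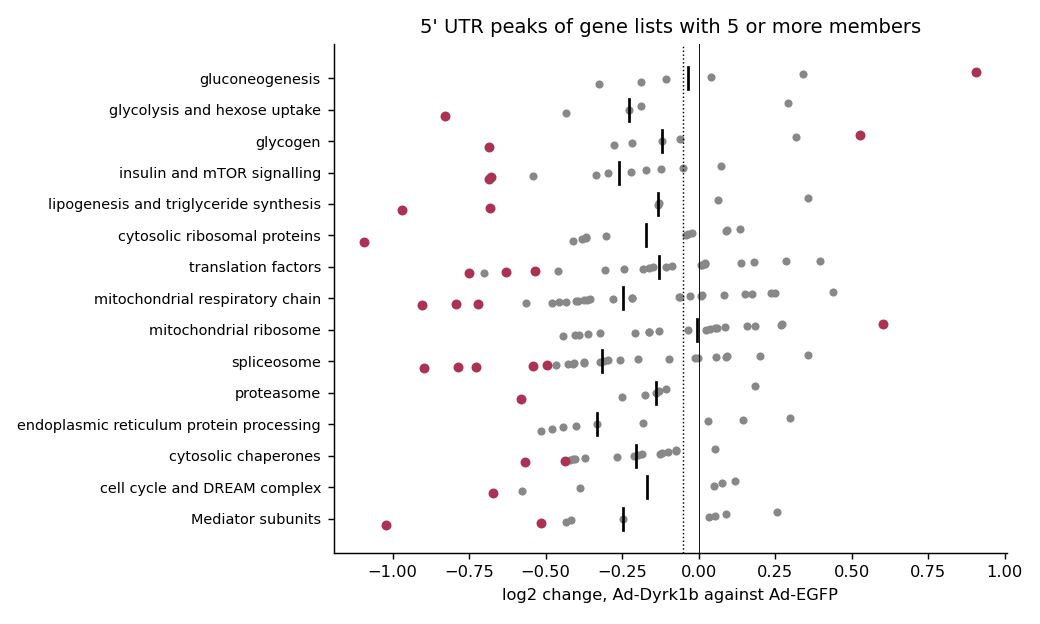
Log2 change of Ad-Dyrk1b over Ad-EGFP (x axis) for each 5' UTR peak of the gene lists with 5 or more peaks, with list medians as black bars, the median of all 5' UTR peaks as a dotted line and peaks with an unadjusted p under 0.05 in red. The spliceosome and endoplasmic reticulum lists have the lowest medians, and the mitochondrial ribosome list lies at -0.01.

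No 5' UTR peak of the lists of regulatory genes passed the test. The hepatocyte factors Hnf4a (41.3 ± 11.7 and 37.1 ± 7.19 CPM) and Tbx3 (86.9 ± 14.1 and 80.0 ± 8.77 CPM) both overlapped between groups. The cell cycle list had 6 peaks, 3 below 0, with the inhibitor Cdkn1a at 64.2 ± 9.30 and 40.3 ± 13.5 CPM (-0.67 ± 0.27) and the replication helicase subunit Mcm2 at 46.7 ± 1.73 and 30.9 ± 5.76 CPM (-0.58 ± 0.30). Of the clock genes, Ciart, whose E-box is shown above, stood at 30.1 ± 6.04 and 40.5 ± 1.85 CPM (0.42 ± 0.31). In the Hippo pathway, which acts on YAP and TAZ, Stk3 stood at 87.1 ± 24.8 and 106 ± 17.5 CPM (0.29 ± 0.22) and Wwtr1, the gene of TAZ, at 61.4 ± 6.46 and 52.8 ± 19.8 CPM (-0.21 ± 0.26). Dyrk1a, the nearest relative of Dyrk1b, stood at 36.4 ± 11.3 and 29.2 ± 5.74 CPM (-0.31 ± 0.33), and Hipk3, of a related kinase family, at 70.6 ± 4.22 and 77.5 ± 6.60 CPM (0.14 ± 0.23). The single histone peak, at H1f4, stood at 20.5 ± 9.78 and 20.7 ± 3.12 CPM.

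Markers of other cells were present at 2 of the 5' UTR peaks. Lrat, the retinol-storing enzyme of stellate cells, stood at 11.7, 15.8 and 12.1 CPM in Ad-EGFP and 23.9, 22.1 and 20.7 CPM in Ad-Dyrk1b, without overlap (0.74 ± 0.48, edgeR adjusted p = 0.480). S100a8 stood at 15.2, 34.0 and 14.8 CPM against 33.2, 37.5 and 23.04 CPM, with overlap (0.52 ± 0.38, edgeR adjusted p = 0.530). Both were weak peaks, of the lowest quartile by level.

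The strongest 5' UTR peaks were wide ones. Abhd11, a mitochondrial hydrolase, had the widest peak of the class at 2085 bases and stood at 267 ± 25.2 and 212 ± 17.3 CPM (-0.33 ± 0.20). Tsen34, of the tRNA splicing endonuclease, stood at 257 ± 58.8 and 181 ± 8.76 CPM (-0.51 ± 0.21), Spag7 at 236 ± 28.96 and 166 ± 6.89 CPM (-0.51 ± 0.20), and Dnpep, an aminopeptidase, at 209 ± 24.2 and 172 ± 19.1 CPM (-0.28 ± 0.20). Mark2, a kinase of cell polarity, stood at 222 ± 6.71 and 157 ± 33.2 CPM (-0.50 ± 0.21), Tlcd1 at 212 ± 12.9 and 155 ± 43.1 CPM (-0.44 ± 0.21) and Rassf7 at 204 ± 10.8 and 171 ± 22.9 CPM (-0.25 ± 0.20). These 7 were all below 0 under TMM, and none passed the test. Of these 7, only the Tlcd1 peak did not cover its start, from which it lay 1317 bases away. The highest peak of all, at 797 CPM, was at Sfi1, a centrosomal protein gene, and lay 13952 bases from the start. It stood at 658, 966 and 839 CPM in Ad-EGFP and at 1135, 598 and 587 CPM in Ad-Dyrk1b, so that Ad-Dyrk1b library 1 was the highest and the others the lowest. Its neighbouring Sfi1 intron peaks were also strong, up to 1213 CPM, so the level there was not limited to the UTR.

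Peaks far from the start were few. The farthest was at Igsf11, 105695 bases downstream (22.0 ± 1.93 and 31.9 ± 11.7 CPM, log2 change 0.57 ± 0.36), followed by Ctbp2 at 70368 bases and Wdfy3 at 60035 bases. The 30 peaks beyond 3 kb had a median of 37.9 CPM and a median log2 change of -0.02, with 1 higher and 1 lower at an unadjusted p under 0.05.

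In 64 genes, 2 of the 5' UTR peaks lay at the same gene, with a median gap of 1029.5 bases, and none had more. Their log2 changes had the same sign in 38 of 64. The following pairs were chosen after their values were seen. At Mark2, the pair lay 45009 bases apart, the stronger at -0.50 and the weaker, at 70.2 CPM, at 0.20. At Robo1, an axon guidance receptor, adjacent peaks 56 bases apart had -0.61 and 1.07, and at Zfp219 peaks 271 bases apart had -0.50 and -0.89. At Macf1, which links microtubules and actin, peaks 151720 bases apart had 0.03 and 0.30. Close pairs thus did not always go together, and whether the members of a pair differed was not tested.

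Other peaks of the same gene were compared with the 5' UTR peak. In 98 genes with a promoter peak within 1 kb as well, the log2 changes had the same sign in 51 (52.0%), and across genes Pearson's r was 0.03. With a first-intron peak it was 0.04 over 482 genes, and with a later-intron peak 0.06 over 713 genes, all measured in the same 6 libraries. It was 0.21 with an exonic peak (93 genes), 0.15 with a 3' UTR peak (79 genes), 0.03 with a downstream peak (54 genes) and 0.46 with a promoter peak at 1 to 2 kb (23 genes, 17 with the same sign). The 5' UTR peak was the stronger of the pair in 61 of the 98, 322 of the 482 and 506 of the 713. Genes are not independent replicates, and in counts of this depth a weak correlation is no finding.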

How the data were processed

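ATAC-seq of 6 mouse liver libraries, 3 per group, was analysed from 1 table. Per the file headers, the authors deposited read counts per peak over 1 merged peak set, RPKM values, the log2 ratio of the group mean RPKM values, a p-value and an FDR. No deposited count is under 1, so counts of 0 may have been raised to 1, and 6 of the 17178 values at 5' UTR peaks were 1. The submitters' processing notes name Bowtie2, DiffBind, ChIPseeker and mm10. The sources used here do not give the peak caller, the handling of duplicates, the transposase shift or the authors' test. Gene positions in the table do not follow GRCm38, so peak coordinates are printed as deposited, without a build, and whether starts count from 0 is not stated.

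Counts of all peaks were fitted with edgeR 4.0.16 (R 4.3.3, TMM, filterByExpr, quasi-likelihood test, no covariate), and p was adjusted over the 22051 peaks left. The filter removed 361 peaks, 1 of them at a 5' UTR. The common biological coefficient of variation was 19.9%. Levels are TMM-normalised CPM, mean ± SD over 3 libraries, and log2 changes carry a standard error. The fit was tested on simulated data. Library totals were worked out from the deposited RPKM values. Alternatives were DESeq2 1.42.0, limma-trend (limma 3.58.1), other scalings, no filter, a replicate block, leaving out each library and keeping peaks within 1 kb. RefSeq windows (250 bases before and 50 after a start, GRCm38.p6) were matched by gene name.

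Named peaks were set by rule: every called peak, the 10 lowest p in each direction without overlap (predicted genes left out), the 8 highest levels, the 2 lowest p of each gene list, the widest, the most downstream, and the genes with the most 5' UTR peaks, where 64 tied at 2. The class of peaks, gene lists and motifs were chosen with earlier results of these data known. Some peaks that meet this rule are not reported here.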

Additional observations from a re-analysis of the deposited data

How the results depend on the processing

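The 66 named 5' UTR peaks under 14 alternatives gave 901 values with an adjusted p, of which 870 kept their direction and their side of the threshold, 15 changed sign, 12 lost a call and 4 gained one. DESeq2 gave no adjusted p for 23 of the 66, Rccd1 among them. The cause of each change was not tested. Called lower were 5 peaks by DESeq2 (which gave no adjusted p for 1453 of them), 1 by limma-trend, 1 scaled by library size only, 1 after loess normalization, 0 scaled to library totals (a setting added after seeing the data) and 0 to 2 when 1 library was left out. None was called higher under any of these. The median log2 change was -0.01304 scaled by library size only, 0.03047 after loess normalization and 0.117 scaled to library totals, and -0.06777 to -0.03204 when 1 library was left out. Lower at an unadjusted p under 0.05 were 153 peaks after loess normalization, 16 scaled to library totals and 157 (without Ad-Dyrk1b 3) to 240 when 1 library was left out.

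Log2 changes turned sign at 5 peaks, all between -0.155 and 0.01 under TMM. After loess normalization Sfi1 was at 0.09989, Tbx3 at 0.04288 and H1f4 at -0.2552. Scaled to library totals, Sfi1 was at 0.002896, Tbx3 at 0.05721, Cpt2 at 0.02748 and Hnf4a at 0.05325. When 1 library was left out, they ranged from -0.4635 to 0.08095 (Sfi1), -0.2149 to 0.02353 (Tbx3), -0.3005 to 0.4174 (H1f4) and -0.3228 to 0.07566 (Hnf4a).

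With the replicate number as a block, 2 peaks were called lower and 133 were higher and 222 lower at an unadjusted p under 0.05. Libraries with the same number deviated together at correlations of -0.0098, -0.0144 and 0.0073. Those with different numbers had -0.0243 to 0.0322. No pairing by number was thus seen, but in counts of this depth such values cannot exclude one. The median 5' UTR peak held 37 to 64 reads per library, and the size of change this depth can show is not reported here.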
